A study of Mus musculus with 5 samples.

Results

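The genes described here encode the route from glucose to lactate and the switch that keeps pyruvate out of the mitochondrion: glucose carriers, every enzyme of glycolysis, the lactate dehydrogenases, the monocarboxylate carriers, the pyruvate dehydrogenase kinases and the subunit they act on, and the phosphoglucomutases that link the pathway to glycogen. They were chosen as a list of 35 symbols, and all 35 were found among the 52029 genes of the table shared by 4 libraries and in the separate table of the fifth. They were measured by total RNA sequencing of mouse hepatobiliary organoids, which are epithelial cultures that renew themselves from liver stem or progenitor cells. The co-culture group held 3 libraries of organoids grown with liver endothelial cells, at passage 8, and the other group held 2 libraries of organoids grown alone, at passage 1. All 5 came from wild-type primary cells at day 10, in a medium with EGF, endothelial cell growth supplement, heparin, nicotinamide and the kinase inhibitor Y-27632, and the labels give neither age nor sex of the mice. Co-culture and passage change together, so their contributions cannot be told apart. Nothing in the labels tells whether libraries of 1 group are separate cultures, and the p-values therefore reflect the spread among the sequenced libraries alone, part of which may be technical.

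Glycolysis splits glucose into pyruvate in the cytosol and yields a little ATP without oxygen. Lactate dehydrogenase turns pyruvate into lactate, which leaves the cell with a proton through monocarboxylate carriers, while the pyruvate dehydrogenase kinases inactivate the enzyme that would feed pyruvate to the citric acid cycle. Many of these genes are known targets of the hypoxia-inducible factors, and in the liver the isoenzymes divide between hepatocytes, which also make glucose, and proliferating or biliary cells, which mostly consume it.

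Depth was 33881617 and 35878241 counts in the co-culture libraries M9 and M10, 58853737 counts in the third co-culture library, and 26466739 and 29195328 counts in the libraries alone, M11 and M12. The third co-culture library stood apart: it came in a separate table counted on RefSeq genes, and the members took 0.473% of its counts, against 1.79% in M9, 2.48% in M10, 0.931% in M11 and 0.958% in M12. Mitochondrially encoded protein genes took 5.93% of its counts and 2.06% to 2.58% of those of the other 4 libraries. Because of its separate table and annotation, and not because of these levels, the third library was kept out of the main test. That test compared M9 and M10 with M11 and M12, and each result is also given with the third library.

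Promoters of 6 members are shown because these genes hold the main contrasts: the lactate carrier that rose (Slc16a3) beside the one that did not pass (Slc16a1), the lactate dehydrogenase that rose (Ldha) beside its isoenzyme (Ldhb), and Pgk1 and Pdk1, which also rose. Each is the first promoter listed for its gene by RefSeq on GRCm38.p6, from 250 bases before the start to 50 after it, 5′ to 3′. Capitals mark ACGTG or GCGTG, the core letters that hypoxia-inducible factors are known to bind, on either strand, so that CACGT and CACGC are the same letters on the other strand. CACGTG, the E-box letters, holds ACGTG on both strands and counts as 2 matches.
Slc16a3 (chr11:120948817-120949116, plus strand): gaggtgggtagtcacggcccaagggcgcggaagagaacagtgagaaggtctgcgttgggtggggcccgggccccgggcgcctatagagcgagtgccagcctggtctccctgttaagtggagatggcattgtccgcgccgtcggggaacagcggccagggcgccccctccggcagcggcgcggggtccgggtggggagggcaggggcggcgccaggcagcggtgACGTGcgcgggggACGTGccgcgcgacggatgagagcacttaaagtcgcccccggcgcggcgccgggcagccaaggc
Slc16a1 (chr3:104638414-104638713, plus strand): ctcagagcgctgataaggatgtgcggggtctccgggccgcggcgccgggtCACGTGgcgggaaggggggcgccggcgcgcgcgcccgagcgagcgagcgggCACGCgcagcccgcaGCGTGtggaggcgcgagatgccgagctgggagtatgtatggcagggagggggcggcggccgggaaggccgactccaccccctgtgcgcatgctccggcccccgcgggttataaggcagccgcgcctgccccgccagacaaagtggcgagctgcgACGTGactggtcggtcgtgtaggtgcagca
Ldha (chr7:46845554-46845853, plus strand): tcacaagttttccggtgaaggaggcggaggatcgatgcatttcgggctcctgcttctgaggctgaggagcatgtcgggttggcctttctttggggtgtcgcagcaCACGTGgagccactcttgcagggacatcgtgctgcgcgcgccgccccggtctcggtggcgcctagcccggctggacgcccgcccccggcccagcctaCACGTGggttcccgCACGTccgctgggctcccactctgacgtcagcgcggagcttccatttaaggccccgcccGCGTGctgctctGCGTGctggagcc
Ldhb (chr6:142507908-142508207, minus strand): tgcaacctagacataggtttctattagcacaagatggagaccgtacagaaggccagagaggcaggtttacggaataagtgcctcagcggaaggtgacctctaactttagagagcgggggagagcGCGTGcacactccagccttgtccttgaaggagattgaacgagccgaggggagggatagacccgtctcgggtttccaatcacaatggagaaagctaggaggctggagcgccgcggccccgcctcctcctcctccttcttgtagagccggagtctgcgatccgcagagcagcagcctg
Pgk1 (chrX:106186850-106187149, plus strand): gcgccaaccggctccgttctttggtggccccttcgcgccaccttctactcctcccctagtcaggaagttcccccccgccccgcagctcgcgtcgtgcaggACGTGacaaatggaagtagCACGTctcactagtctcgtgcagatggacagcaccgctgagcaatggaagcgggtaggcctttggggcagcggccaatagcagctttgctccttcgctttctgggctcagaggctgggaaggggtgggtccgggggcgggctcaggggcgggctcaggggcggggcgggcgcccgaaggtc
Pdk1 (chr2:71872974-71873273, plus strand): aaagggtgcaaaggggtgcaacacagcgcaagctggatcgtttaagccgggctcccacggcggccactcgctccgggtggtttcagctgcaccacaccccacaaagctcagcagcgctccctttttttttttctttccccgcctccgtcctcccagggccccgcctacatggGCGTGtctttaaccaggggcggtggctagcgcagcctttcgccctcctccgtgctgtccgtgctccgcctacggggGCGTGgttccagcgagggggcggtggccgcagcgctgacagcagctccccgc

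The Slc16a3 promoter held 2 ACGTG matches and no GCGTG, and that of Pgk1 likewise held 2 and none. The Ldha promoter held 5 ACGTG and 2 GCGTG matches, and the promoter of Slc16a1 held 3 and 2. Ldhb had a single GCGTG and Pdk1 had 2 of them, and neither had ACGTG in this window. Across the members, 34 had a listed promoter (Slc2a3 had none), and 23 of their 54 promoters (42.6%) held ACGTG, as did 19.6% of all 32851 mouse promoters of this length. GCGTG stood in 27 of the 54 (50.0%) and in 32.4% of all promoters. Counted by gene, at least 1 listed promoter held ACGTG for 6 of the 9 members that rose, 19 of the 34 members and 21.8% of all 27025 genes. GCGTG did so for 4 of the 9, 21 of the 34 and 35.2% of all genes. The members had more listed promoters per gene (54 for 34 genes) than all genes did (32851 for 27025). The counts by gene are therefore not like for like. A match is a description of these letters and says nothing of binding.

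In M9 and M10, 9 members rose and 0 fell, out of 34 that had enough counts to test: Hk2, Pfkl, Aldoc, Tpi1, Pgk1, Pkm, Ldha, Slc16a3 and Pdk1. The other 25 did not pass, and Slc2a3, with 0 to 6 counts in each library, was not tested. Over all 15899 genes tested by the quasi-likelihood test of edgeR at a Benjamini-Hochberg adjusted p of 0.05, 0.994% were called higher and 1.25% lower. A positive log2 fold change was found for 27 of the 34 members (79.4%) and 50.1% of all genes, and the median log2 fold change was 0.89 for the members and 0.00 for all genes. M9 and M10 both exceeded M11 and M12 for 21 members (61.8%; 25.1% of all genes), and both were lower for 5 (14.7%; 25.4% of all genes). These 2 shares of all genes are over the 14541 tested genes that were also joined to the third library. The same 14541 genes underlie the later shares and medians that compare single libraries, except those by abundance. At an unadjusted p under 0.05 there were 19 members higher (8.42% of all genes) and 3 lower (9.06% of all genes).

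The 9 calls depended on which libraries entered. With the third co-culture library added, edgeR called 0 members, and of all 14974 genes tested it called 0% higher and 0.0134% (2 genes) lower. At an unadjusted p under 0.05, 3 of the 34 members were higher there (4.62% of all genes) and 2 lower (4.96% of all genes), close to the background. All 9 genes kept a positive fold change there, with edgeR adjusted p from 0.420 for Pdk1 to 0.817 for Pkm. That fit averages the third library with M9 and M10, and in the third library itself 7 of the 9 lay below both M11 and M12. Without M11, and likewise without M12, 0 members passed edgeR's test, where 0.0702% of all genes were called higher and 0.222% lower without M11, and 0% each way without M12. At an unadjusted p under 0.05, 17 members were higher and 2 lower in each case, against 4.0% and 5.33% of all genes without M11 and 4.33% and 4.15% without M12. Without M9, 20 members were called higher (7.74% of all genes) and 1 lower (7.92%), and without M10, 15 (2.96%) and 1 (3.72%). DESeq2 called 17 members higher (3.95% of all genes) and 2 lower (4.25%).

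**Figure D1:**
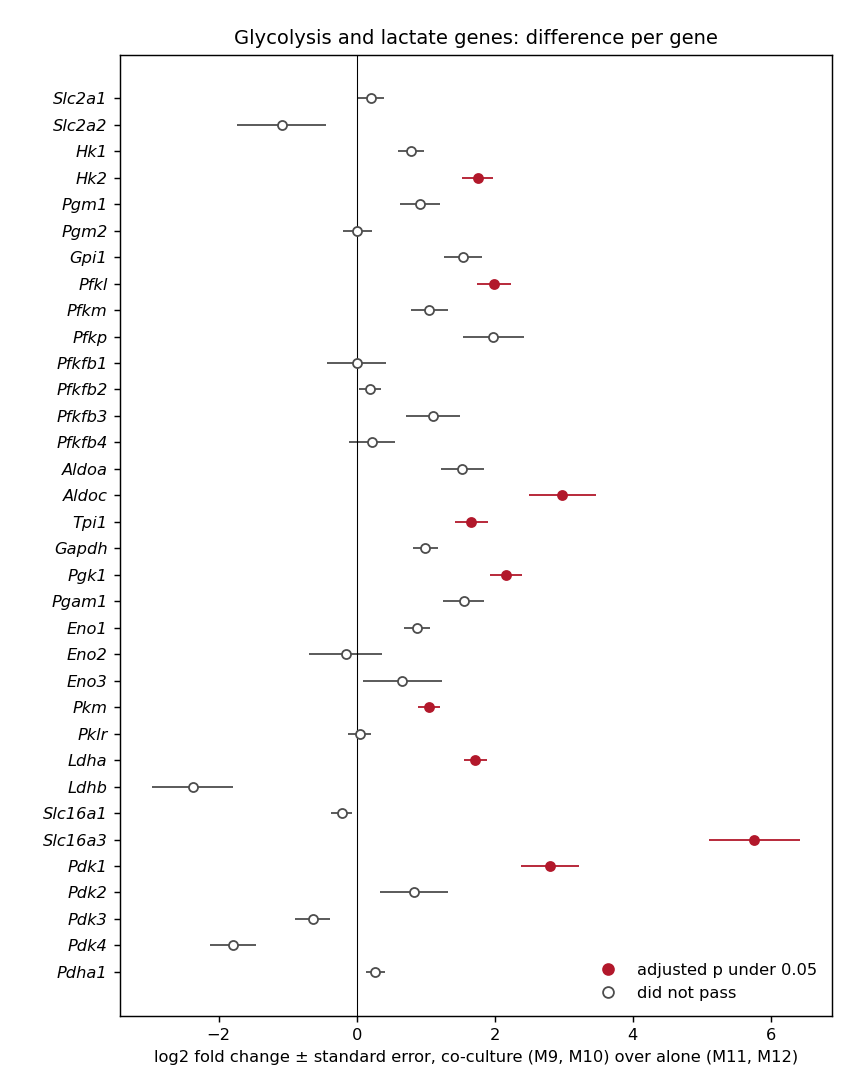
The log2 fold change of co-culture libraries M9 and M10 over organoids alone (M11 and M12) is drawn for each of the 34 tested members in pathway order, with its standard error. The 9 filled red points passed edgeR's test at an adjusted p under 0.05, Slc16a3 lies farthest to the right at 5.76, and the 7 negative estimates, among them Ldhb at -2.38 and Pdk4 at -1.79, did not pass.

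Lactate export gave the largest difference. Levels are in CPM, counts scaled to library size on a TMM scale over the 5 libraries. Slc16a3, the carrier MCT4 that exports lactate from glycolytic cells, had 76.6 and 264 CPM in M9 and M10, against 2.93 and 3.32 CPM in M11 and M12. The groups were far apart, although M9 and M10 also differed from each other by 1.78 on the log2 scale. Slc16a3 (ENSMUSG00000025161, chr11:120948480-120960868, plus strand, GRCm38) rose 54.2-fold, a log2 fold change of 5.76 ± 0.66 (SE, n = 2 each; edgeR adjusted p = 0.0216). The call was lost under limma-voom (adjusted p = 0.0666) and by edgeR without a low-count filter (adjusted p = 0.242). The estimate was 6.40 without M9 and 4.63 without M10. In the third co-culture library it stood at 1.31 CPM, below every other library.

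Slc16a1, the carrier MCT1, moves lactate in either direction and was nearly level. It had 71.2 and 72.6 CPM in M9 and M10, against 80.3 and 86.6 CPM in M11 and M12, with 75.5 CPM in the third co-culture library. The co-culture libraries were lower without overlap, but the log2 fold change of -0.22 ± 0.15 did not pass (edgeR adjusted p = 0.526). Levels of isoenzymes were compared per length, as counts divided by the joined exon length of the gene. On that scale Slc16a3 made up 47.2% and 75.2% of the sum of the 2 carriers in M9 and M10, 1.43% in the third co-culture library, and 2.95% and 3.09% in M11 and M12. It was thus the larger carrier in M10, close to equal in M9 (52.3% by the length of the longest transcript) and minor in the other 3 libraries.

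Among the dehydrogenases, Ldha encodes the subunit that favours making lactate from pyruvate and Ldhb the subunit that favours the reverse. Ldha (ENSMUSG00000063229, chr7:46841475-46855627, plus strand) had 1600 and 1934 CPM in M9 and M10, against 532 and 543 CPM in M11 and M12. It rose with a log2 fold change of 1.72 ± 0.16 (SE; edgeR adjusted p = 0.0162), the smallest p among the members. The third co-culture library had 220 CPM, lower than both libraries alone. Ldhb had 5.45 and 1.59 CPM in M9 and M10, against 17.5 and 19.3 CPM in M11 and M12, without overlap, and its log2 fold change of -2.38 ± 0.58 did not pass (edgeR adjusted p = 0.111). Its level in the third co-culture library, 4.47 CPM, lay between those of M9 and M10. As a share of both dehydrogenases per length, Ldhb was 0.712% and 0.173% in M9 and M10, 4.11% in the third co-culture library, and 6.47% and 6.97% in M11 and M12.

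At the pyruvate switch, Pdk1, a kinase that turns off pyruvate dehydrogenase, rose, while none of the other 3 kinases passed. Pdk1 (ENSMUSG00000006494, chr2:71873224-71903858, plus strand) had 80.0 and 192 CPM in M9 and M10, against 20.3 and 18.5 CPM in M11 and M12. The groups did not overlap, and the log2 fold change was 2.80 ± 0.42 (SE; edgeR adjusted p = 0.0374; 2.06 without M10). The adjusted p was 0.0652 under limma-voom and 0.184 by edgeR without a low-count filter, which ended the call. It was the only one of the 9 risen members that the third co-culture library also held above both libraries alone, at 33.4 CPM, though below M9 and M10. Pdk4, the kinase known to rise in fasting and fat oxidation, had 11.5 and 12.2 CPM in M9 and M10 and 6.63 CPM in the third co-culture library, against 28.3 and 53.4 CPM in M11 and M12. All 3 co-culture libraries were below both libraries alone, but the log2 fold change of -1.79 ± 0.33 missed the threshold (edgeR adjusted p = 0.0626).

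Pdk3 had 8.39 and 8.14 CPM in M9 and M10, 10.3 CPM in the third co-culture library, and 12.5 and 13.2 CPM in M11 and M12 (log2 fold change -0.64 ± 0.25, edgeR adjusted p = 0.263). Pdk2, the most widely expressed kinase, had 13.0 CPM in M9 and 37.8 CPM in M10, 29.1 CPM in the third co-culture library, and 15.3 and 13.1 CPM in M11 and M12, so that only M10 and the third library exceeded the organoids alone. Of the 4 kinases' sum per length, Pdk1 held 49.1% and 57.1% in M9 and M10, 22.1% in the third co-culture library, and 12.8% and 8.84% in M11 and M12. Pdk4 held 15.6% and 8.03% in M9 and M10, 9.72% in the third co-culture library, and 39.5% and 56.6% in M11 and M12. The leading kinase was Pdk1 in M9 and M10, Pdk2 in the third co-culture library, with 47.5%, and Pdk4 in the organoids alone. Pdha1, the X-linked subunit of pyruvate dehydrogenase that these kinases phosphorylate, had 168 and 172 CPM in M9 and M10, 222 CPM in the third co-culture library, and 138 and 145 CPM in M11 and M12, and did not pass (0.27 ± 0.14, edgeR adjusted p = 0.413).

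**Figure D2:**
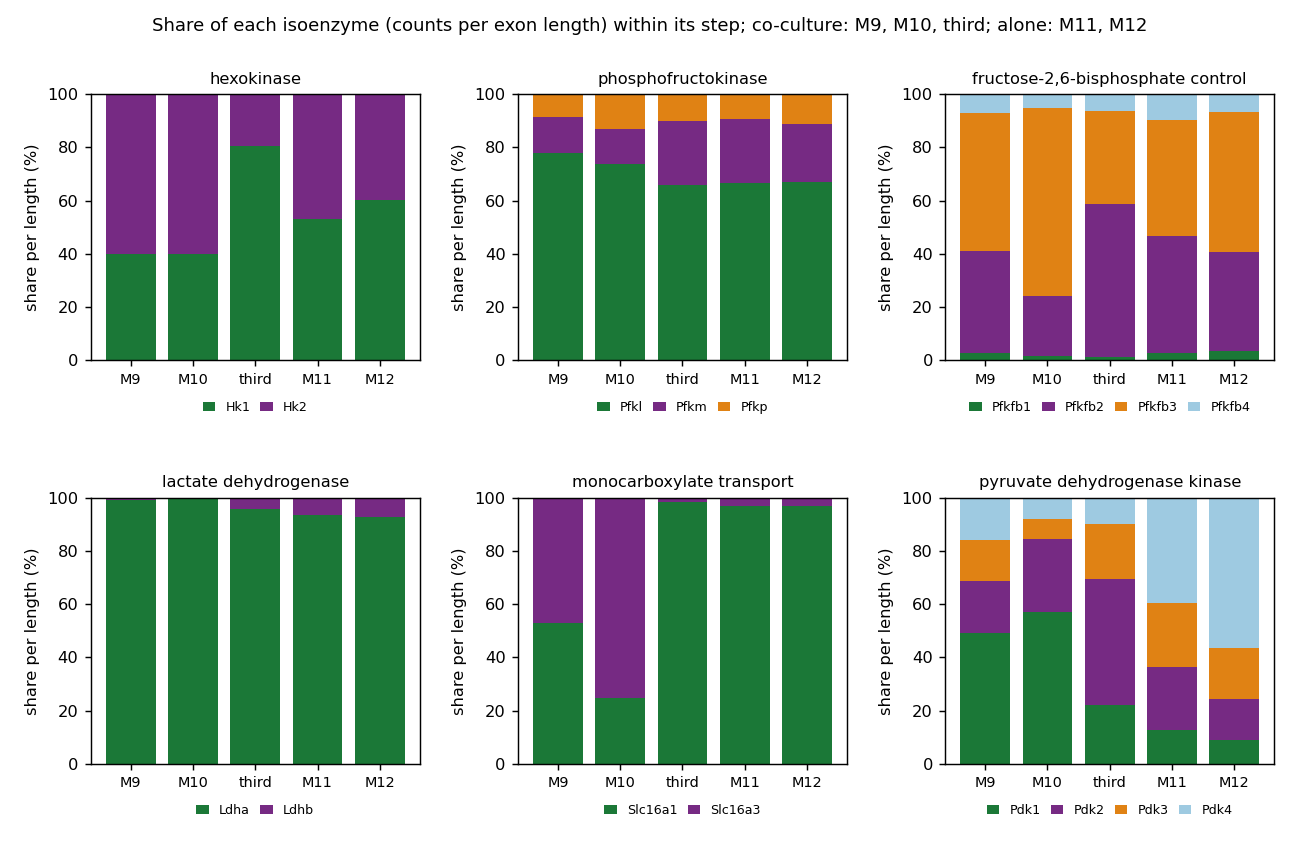
Stacked bars give each isoenzyme's share of the summed counts per exon length of its step, in percent, in co-culture (M9, M10 and the third library) and alone (M11 and M12). Slc16a3 fills 47.2% and 75.2% of the carrier bar and Pdk1 49.1% and 57.1% of the kinase bar in M9 and M10, against 1.43% and 22.1% in the third library.

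At the entry to the pathway, the glucose carriers did not pass. Slc2a1, the carrier GLUT1 of most proliferating cells, had 407 and 556 CPM in M9 and M10, 316 CPM in the third co-culture library, and 376 and 460 CPM in M11 and M12. The groups overlapped, and the log2 fold change was 0.20 ± 0.20 (edgeR adjusted p = 0.691). It held at least 99.9% of the per-length sum of Slc2a1, Slc2a2 and Slc2a3 in each of the 5 libraries. Slc2a2, the carrier GLUT2 of hepatocytes, was at 0.147 to 0.450 CPM, and Slc2a3, a high-affinity carrier of neurons, had no count in M9, M11 or the third library.

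Hexokinase traps glucose as glucose-6-phosphate. Hk2, the inducible isoenzyme (ENSMUSG00000000628, chr6:82725025-82774454, minus strand), had 252 and 340 CPM in M9 and M10, against 102 and 74.4 CPM in M11 and M12. It rose with a log2 fold change of 1.75 ± 0.23 (SE; edgeR adjusted p = 0.0302), and the third co-culture library had 25.8 CPM, lower than every other library. Hk1, the constitutive isoenzyme, had 238 and 323 CPM in M9 and M10, 152 CPM in the third co-culture library, and 163 and 162 CPM in M11 and M12, without passing (0.78 ± 0.19, edgeR adjusted p = 0.106). Hk2 made up 60.2% and 60.1% of the pair per length in M9 and M10, 19.6% in the third co-culture library, and 47.1% and 39.6% in M11 and M12. Which of the pair was larger in M9 and M10 depended on the length, since Hk2 had 45.1% and 45.0% there by the longest transcript.

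The next step, glucose-6-phosphate isomerase (Gpi1), had 746 and 1292 CPM in M9 and M10, 290 CPM in the third co-culture library, and 345 and 352 CPM in M11 and M12, and narrowly missed the threshold (1.54 ± 0.27, edgeR adjusted p = 0.0541). Pgm1, a phosphoglucomutase that links glucose-6-phosphate to glycogen, had 95.6 and 179 CPM in M9 and M10, 56.9 CPM in the third co-culture library, and 73.4 and 72.0 CPM in M11 and M12 (0.91 ± 0.29, edgeR adjusted p = 0.197). Its relative Pgm2 spanned 30.1 to 40.3 CPM over the 5 libraries with overlapping groups. The deposited tables give these 2 symbols to opposite genes, so they were matched by MGI accession and named as in the shared table.

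Phosphofructokinase is the committed step. Pfkl, the liver-type subunit (ENSMUSG00000020277, chr10:77986947-78010083, minus strand), had 483 and 782 CPM in M9 and M10, against 155 and 162 CPM in M11 and M12. It rose with a log2 fold change of 1.99 ± 0.25 (SE; edgeR adjusted p = 0.0258), and the third co-culture library had 138 CPM. Pfkp, the platelet-type subunit, had 107 and 280 CPM in M9 and M10, 42.6 CPM in the third co-culture library, and 43.5 and 53.9 CPM in M11 and M12, a similar fold change of 1.98 with a wider error of 0.44 that did not pass (edgeR adjusted p = 0.0928). Pfkm, the muscle-type subunit, had 41.8 and 70.1 CPM in M9 and M10, 25.3 CPM in the third co-culture library, and 27.7 and 26.3 CPM in M11 and M12 (1.05 ± 0.27, edgeR adjusted p = 0.125). Pfkl was the main subunit per length in all 5 libraries, with 65.8% to 77.9% of the sum.

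The bifunctional enzymes Pfkfb1 to Pfkfb4 make and break fructose-2,6-bisphosphate, the activator of phosphofructokinase, and none of the 4 passed. Pfkfb3, the isoenzyme with the highest kinase activity, had 73.1 and 169 CPM in M9 and M10, 67.7 CPM in the third co-culture library, and 49.2 and 63.7 CPM in M11 and M12 (1.10 ± 0.39, edgeR adjusted p = 0.232). Pfkfb2, the heart isoenzyme, stood at 51.9 and 52.2 CPM in M9 and M10 and at 106 CPM in the third co-culture library, against 48.0 and 42.9 CPM in M11 and M12, one of 3 members at least 2-fold above the organoids alone in that library. Pfkfb4 (4.96 to 7.85 CPM) and Pfkfb1, the liver isoenzyme (1.23 to 2.27 CPM), were low throughout.

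In the aldolase step, which splits the sugar into trioses, Aldoa made up at least 96.8% of its pair with Aldoc per length in each library. Aldoa had 1544 and 2976 CPM in M9 and M10, 512 CPM in the third co-culture library, and 742 and 822 CPM in M11 and M12, and did not pass (1.53 ± 0.31, edgeR adjusted p = 0.0779). Aldoc, the brain-type aldolase (ENSMUSG00000017390, chr11:78322968-78327781, plus strand), had 47.8 and 111 CPM in M9 and M10, against 7.13 and 12.8 CPM in M11 and M12. It rose with a log2 fold change of 2.98 ± 0.49 (SE; edgeR adjusted p = 0.0465; 2.27 without M10), a call lost under limma-voom (adjusted p = 0.0766) and by edgeR without a low-count filter (adjusted p = 0.277). The third co-culture library, at 12.8 CPM, was inside the range of the organoids alone. Tpi1, which interconverts the trioses (ENSMUSG00000023456, chr6:124810586-124814296, minus strand), had 692 and 1081 CPM in M9 and M10, 236 CPM in the third co-culture library, and 259 and 300 CPM in M11 and M12. It rose by a log2 fold change of 1.66 ± 0.24 (SE; edgeR adjusted p = 0.0361).

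Gapdh, which oxidises the triose and is often used as a reference transcript, had 3139 and 4153 CPM in M9 and M10 and 378 CPM in the third co-culture library, against 1763 and 1889 CPM in M11 and M12. The groups of the shared table did not overlap, though the log2 fold change of 0.99 ± 0.18 missed the threshold (edgeR adjusted p = 0.0602), and the third library lay 2.27 log2 units under the mean of the organoids alone.

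Pgk1, the first ATP-making kinase (ENSMUSG00000062070, chrX:106187100-106203699, plus strand), had 1235 and 1894 CPM in M9 and M10, against 339 and 359 CPM in M11 and M12. It rose with a log2 fold change of 2.16 ± 0.23 (SE; edgeR adjusted p = 0.0203), while the third co-culture library had 155 CPM. Pgam1, the phosphoglycerate mutase, had 732 and 1380 CPM in M9 and M10, 164 CPM in the third co-culture library, and 369 and 350 CPM in M11 and M12 (1.55 ± 0.30, edgeR adjusted p = 0.0696). Its value is uncertain, because the copy Pgam1-ps2 took 3.98% and 7.96% of the counts of the pair in M9 and M10, 28.2% in the third co-culture library, and 5.47% and 3.84% in M11 and M12. The copy Pgk1-rs7 likewise took 7.87% of the counts of its pair with Pgk1 in the third co-culture library and 0 counts in the other 4.

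Enolase makes phosphoenolpyruvate, and Eno1 held at least 95.1% of the per-length sum of Eno1, Eno2 and Eno3 in each library. Outside that sum, the third co-culture library had Eno4 at 18.7 CPM and the copy Eno1b at 4.79% of the counts of its pair with Eno1. Eno1 had 1773 and 2397 CPM in M9 and M10, 494 CPM in the third co-culture library, and 1091 and 1187 CPM in M11 and M12 (0.87 ± 0.19, edgeR adjusted p = 0.0885). The neuronal Eno2 and the muscle Eno3 stayed under 8 CPM in all 5 libraries and did not pass. Pyruvate kinase closes the pathway, and Pkm (ENSMUSG00000032294, chr9:59656368-59679375, plus strand) had 4417 and 5289 CPM in M9 and M10, 722 CPM in the third co-culture library, and 2343 and 2376 CPM in M11 and M12. It rose with a log2 fold change of 1.04 ± 0.16 (SE; edgeR adjusted p = 0.0396), the smallest of the 9. Per joined exon length, Pkm was the most abundant member in M9, M10, M11 and M12, and Aldoa in the third co-culture library. Some margins were small: 475 CPM per kb for Pkm and 457 for Gapdh in M12, and 1058 for Pkm and 1022 for Aldoa in M10. The ranking may depend on the length used and was not run by the longest transcript. Pklr, the liver and red cell isoenzyme, spanned 51.1 to 70.0 CPM with overlapping groups, and its share of the pair per length was 2.11% and 1.47% in M9 and M10, 13.0% in the third co-culture library, and 3.44% and 3.46% in M11 and M12.

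**Figure D3:**
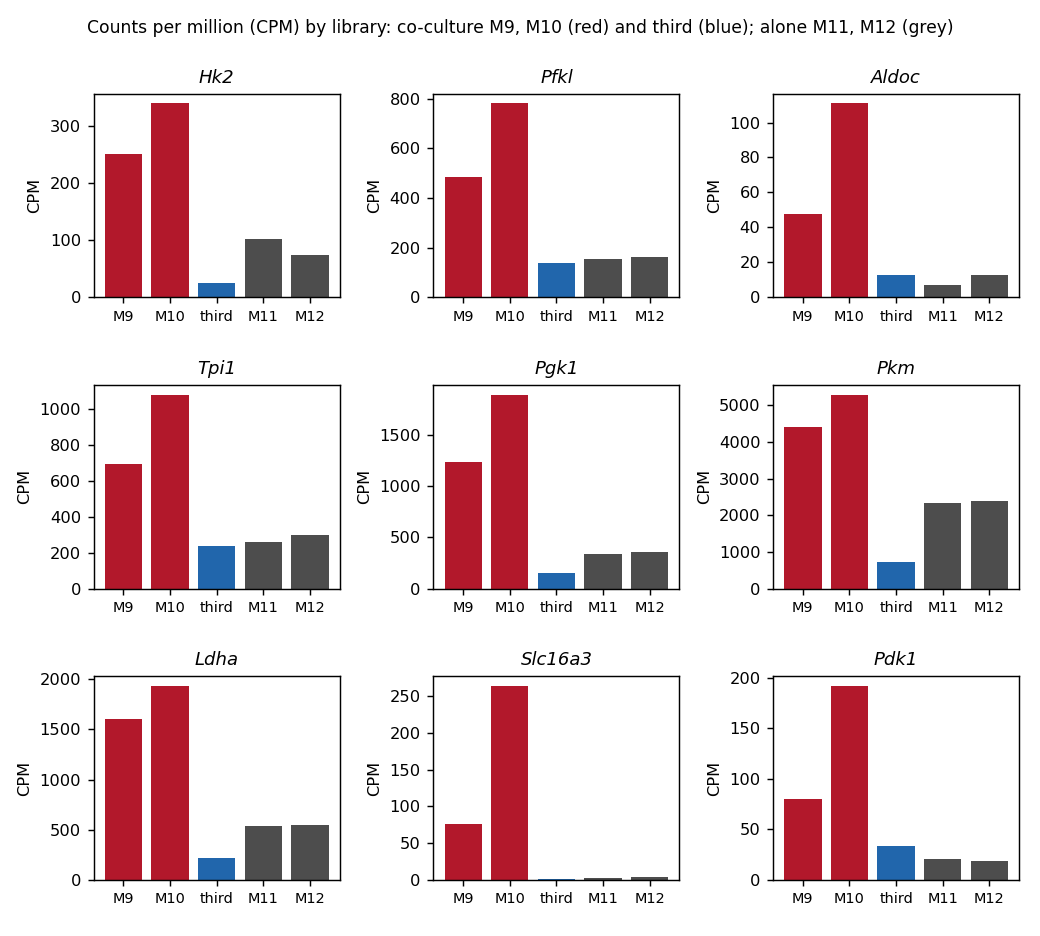
Bars give the CPM (linear axes from 0) of the 9 members that passed the test, by library, in co-culture (M9 and M10 red, the third library blue) and alone (M11 and M12 grey). M9 and M10 are the highest bars in every panel, M10 above M9, and the third co-culture library lies above M11 and M12 for Pdk1 alone.

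The exons of 14 of the 35 members overlap exons of another gene, and no source used here says whether counting used strand. Of the 9 that rose, 2 are among them: Tpi1 overlaps Spsb2 on the opposite strand and Pkm overlaps Gm49759 on the same strand, and each of these neighbours had at most 4.58% of the member's counts in any library of the shared table. Pfkfb1 overlaps Apex2, which had 532% and 333% of its counts in M9 and M10 and 634% and 466% in M11 and M12, so the level of Pfkfb1 is uncertain. Pfkp overlaps Pitrm1, which had more counts than Pfkp in M11 and M12, and Pfkm overlaps Senp1, which had more counts than Pfkm in M9, M11 and M12. All 3 neighbours lie on the opposite strand.

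M10 and M9 were not alike. M10 exceeded M9 for 29 of the 34 members (85.3%; 50.9% of all genes) and for all 9 that rose, while M12 exceeded M11 for 23 (67.6%; 50.0% of all genes). Relative to the organoids alone, on the scale of mean log2 CPM, the median member was higher by 0.47 in M9 and by 1.21 in M10, with medians of 0.00 over all genes in each.

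The third co-culture library differed from M9 and M10 in most steps. It lay below both for 22 members (64.7%; 41.1% of all genes), among them all 9 that rose. Against the organoids alone it was below both M11 and M12 for 24 members (70.6%; 46.0% of all genes) and above both for 9 (26.5%; 42.9% of all genes), with a median log2 difference of -0.22 (-0.02 over all genes) and no test, since it has no replicate in its table. At least 2-fold differences from the mean log2 of the organoids alone were found downward for 10 members (29.4%; 17.6% of all genes) and upward for 3 (8.82%; 13.4% of all genes). The 3 higher ones were Pfkfb2, Eno3 and Pdk2, with log2 differences of 1.22, 1.34 and 1.04. The lower ones were led by Pdk4 (-2.54), Gapdh (-2.27), Ldhb (-2.03), Hk2 (-1.75) and Pkm (-1.71).

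The direction of the third library was shared with M9 and M10 for a few genes. Ldhb and Pdk4 were below the organoids alone in all 3 co-culture libraries, as were Slc2a2, Slc16a1 and Pdk3, and Pdk1, Pfkfb2, Pfkfb3 and Pdha1 were above them in all 3. Slc2a2 rests on 5 to 23 counts per library. The share of all genes with 1 direction in all 3 was not counted, so these are values only. Of all genes, M9 and M10 were both above for 25.1% and both below for 25.4%, and the third library for 42.9% and 46.0%. The median difference moved with abundance: the 11 members that averaged at least 300 CPM over the 5 libraries had a median of -1.14 in the third library, and the other 23 had -0.09. Over all genes of these abundances (509 and 14465) the medians were -0.33 and 0.00. The share of genes at least 2-fold below went the other way, 15.1% and 17.7%. The average includes M9 and M10, so a member high only there could enter the upper class through them. The part of abundance, annotation or mitochondrial share in these differences was not tested.

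**Figure D4:**
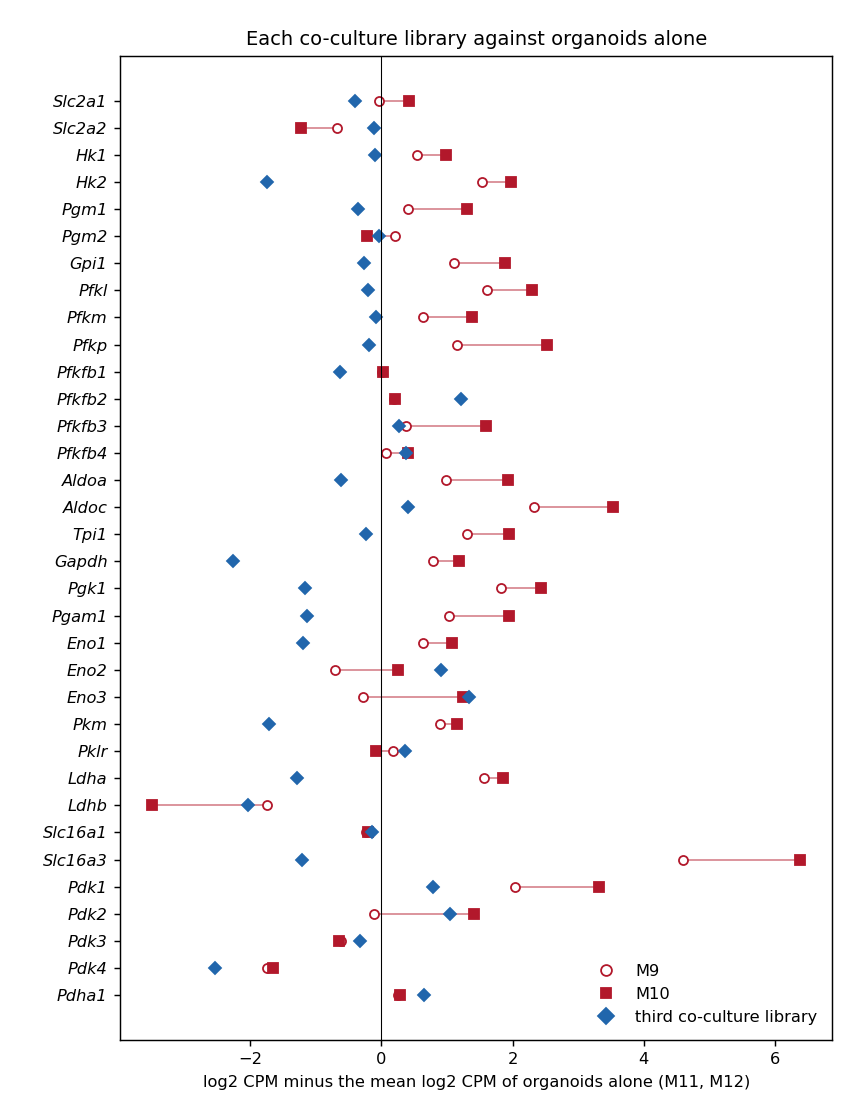
For each tested member in pathway order, the log2 CPM of the co-culture libraries (M9 an open circle, M10 a square, the third library a blue diamond) is plotted as a difference from the mean log2 CPM of organoids alone, which is the vertical line at 0. From Hk2 down to Ldha the squares mostly lie to the right of the circles and the diamonds to the left of the line, with Gapdh at 0.78 (circle), 1.19 (square) and -2.27 (diamond), while for Pdk4 and Ldhb all 3 lie to the left.

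Neighbouring pathways were read against the 0.994% of all genes called higher and 1.25% called lower, at which lists of these sizes hold about 0 calls. Of 23 further glycolysis and lactate genes, 16 were tested and 0 passed by edgeR, with a median log2 fold change of 0.23. The highest CPM was that of Bsg, basigin, the chaperone that brings the monocarboxylate carriers to the membrane, with 932 and 1961 CPM in M9 and M10, 433 CPM in the third co-culture library, and 600 and 620 CPM in M11 and M12 (1.24 ± 0.34, edgeR adjusted p = 0.145). Next was Minpp1, a phosphatase of inositol and bisphosphoglycerate, at 67.8 to 91.5 CPM. Of 12 genes for pyruvate entry and the dehydrogenase complex, 11 were tested and 0 passed, with a median of -0.12, and the one with the highest CPM, the citrate synthase gene Cs, had 273 and 242 CPM in M9 and M10, 208 CPM in the third co-culture library, and 267 and 276 CPM in M11 and M12. Gluconeogenesis genes (6 of 9 tested) and pentose phosphate genes (8 of 8 tested) also had 0 calls, with medians of 0.12 and -0.08, and at these sizes 0 calls is the background and says nothing of the pathways.

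Of the 18 glycogen genes, 15 were tested and 1 rose: Ppp1r3b, the hepatic subunit that brings protein phosphatase to glycogen, had 12.1 and 27.4 CPM in M9 and M10, 4.09 CPM in the third co-culture library, and 3.04 and 2.86 CPM in M11 and M12 (2.73 ± 0.44, edgeR adjusted p = 0.0465). Of 10 genes that encode or regulate hypoxia-inducible factors, all were tested and 1 rose: Egln3, an oxygen-dependent prolyl hydroxylase that is itself a known target of these factors, had 270 and 468 CPM in M9 and M10, 36.4 CPM in the third co-culture library, and 65.5 and 70.6 CPM in M11 and M12 (2.43 ± 0.28, edgeR adjusted p = 0.0218). Hif1a had 97.8 and 57.3 CPM in M9 and M10, 95.1 CPM in the third co-culture library, and 158 and 141 CPM in M11 and M12. It did not pass (-0.94 ± 0.27, edgeR adjusted p = 0.164). A positive log2 fold change was found for 8 of the 10 regulators (50.1% of all genes), and their median was 0.19.

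Marker genes of other cell types were measured beside these, and their calls stand against the same 0.994% higher and 1.25% lower over all genes. In bulk RNA, fewer cells of a type and less RNA per cell cannot be told apart. The endothelial markers Pecam1, Cdh5, Kdr, Tek, Stab2 and Lyve1 had at most 0.316 CPM in every library, co-cultures included. The summed level of 18 endothelial markers was 31.2 and 36.8 CPM in M9 and M10, 90.2 CPM in the third co-culture library, and 137 and 129 CPM in M11 and M12. It was mostly Flt4, the 1 marker called lower of 6 tested. Of the 6, 2 had a positive log2 fold change, Flt1 (1.28) and Oit3 (0.55), and neither passed. Flt1 had 3.40 and 2.03 CPM in M9 and M10, 0.897 CPM in the third co-culture library, and 1.01 and 1.22 CPM in M11 and M12. Mesenchymal markers (12 genes) summed to 2.05 and 3.26 CPM in M9 and M10, 8.02 CPM in the third co-culture library, and 28.0 and 85.5 CPM in M11 and M12, with 3 of 7 tested called lower. Macrophage markers (7 genes, mostly Cd14) summed to 319 and 291 CPM in M9 and M10, 420 CPM in the third co-culture library, and 677 and 598 CPM in M11 and M12, and of 4 tested Lyz2 and Cd14 were called lower. Csf1r and Cd68 did not pass and had positive log2 fold changes, 0.47 and 0.79. Csf1r had 31.4 and 53.8 CPM in M9 and M10, 82.4 CPM in the third co-culture library, and 30.4 and 30.9 CPM in M11 and M12. Adgre1 and Clec4f had no count in any library. Biliary and progenitor markers (10 genes) were high throughout, at 10933 and 10273 CPM in M9 and M10, 7007 CPM in the third co-culture library, and 6750 and 8275 CPM in M11 and M12, with 3 of 10 tested called higher. Hepatocyte markers (10 genes) summed to 517 and 446 CPM in M9 and M10, 610 CPM in the third co-culture library, and 368 and 411 CPM in M11 and M12, mostly Hnf4a, with 423 and 312 CPM in M9 and M10, 315 CPM in the third co-culture library, and 297 and 302 CPM in M11 and M12. Of 5 tested, Alb was called lower (log2 fold change -7.33, edgeR adjusted p = 0.0186), with 0.150 and 0.265 CPM in M9 and M10, 63.9 CPM in the third co-culture library, and 16.6 and 51.4 CPM in M11 and M12. The other 4 did not pass and had positive log2 fold changes, 1.01 for Ttr, 2.74 for Apoa1, 1.11 for Ass1 and 0.30 for Hnf4a. The 7 red blood cell markers summed to at most 0.209 CPM in any library. The part of these marker levels in the differences between groups was not tested.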

How the data were processed

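RNA was extracted with a PicoPure kit and sequenced from stranded libraries depleted of ribosomal RNA, per the labels' protocols. Among the tools in the submitters' processing notes are StringTie 2.1.3b, HISAT2 2.1.0 and Bowtie2 2.3.4.1 (builds: mm10, GRCh37), without roles. The authors deposited estimated counts per Ensembl gene for 4 libraries in 1 table, and whole-number read counts per RefSeq gene for the third co-culture library in another, per the file headers. Estimated counts were rounded, with 1 row per gene. The third library's column carries another number than its record, which gave its sample. It was joined by MGI accession (32601 genes) and then symbol (6 genes), with 98.7% of its counts. The other 10 per-sample columns were not used.

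In R 4.3.3, edgeR 4.0.16 (filterByExpr, TMM, robust quasi-likelihood fit) compared M9 and M10 with M11 and M12, adjusted by Benjamini-Hochberg at 0.05 over 15899 genes; the common dispersion was 0.07. A standard error is the size of the log2 fold change over the root of F. Printed CPM use TMM over all 5 libraries, and log2 differences of single libraries a prior count of 2. Isoenzyme shares, which have no test, use counts over GENCODE M21 joined exon length, also for the third library; positions are from GENCODE M21. The fits were tested on simulated data. Every member is accounted for. Of each other pathway list, up to 4 called genes or the 2 most abundant could be named. Clec4f, Flt4, Flt1, Oit3, Cd14, Cd68, Hnf4a, Apoa1, Ass1, Hif1a, Eno4, Eno1b and overlapping neighbours were named after their values were seen. Members and lists were chosen with earlier results of these data known. Alternatives were scalings, count filters, DESeq2 1.42.0, limma-voom (limma 3.58.1), leaving out each library, and fitting all 5. The MGI join, the transcript length, leave-one-out shares and the third library's scalings were chosen after seeing the data.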

Additional observations from a re-analysis of the deposited data

How the results depend on the processing

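All 9 members that rose kept their sign under every alternative. M9 and M10 each exceeded M11 and M12 for all 9, so leaving out a library could hardly turn a sign. The fit of all 5 libraries averages the third with M9 and M10. In the third library itself, 7 of the 9 lay below both M11 and M12. RLE scaling (360 genes called in all), upper-quartile scaling (344) and a filter of 10 counts in 2 libraries (353) left all 9 called, against 356 genes in all as reported, and total-count scaling called 10 members (413 genes). DESeq2 called 17 members higher and 2 lower (1303 genes in all). Without a low-count filter edgeR called 14 and 2 (1404 in all). Limma-voom called 6 (287 in all). It and the fit without a filter lost Aldoc, Slc16a3 and Pdk1. Leaving out 1 library, where the lone library of a group is assumed to vary like the other group, gave 0 (without M11 or M12) to 20 members higher, 0 to 1 lower and 0 to 2619 genes in all. With the third co-culture library there were 0 members higher and 2 genes in all, whether joined by MGI accession or by symbol alone. The cause of these shifts was not tested. The members' median log2 fold change ranged from 0.48 to 1.21 with a library left out and was 0.61 with all 5 libraries.

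Signs that turned were those of members that did not pass. With a library left out the log2 fold change ranged from -0.02 to 0.41 for Slc2a1, -0.21 to 0.25 for Pfkfb1, -0.02 to 0.51 for Pfkfb4, -0.72 to 0.26 for Eno2, -0.28 to 1.24 for Eno3, -0.10 to 0.19 for Pklr, -0.11 to 1.41 for Pdk2 and -0.22 to 0.22 for Pgm2. Eno2 was also at 0.31 with 5 libraries (0.32 joined by symbol), Pfkfb1 at 0.00 by RLE and DESeq2 and 0.01 by limma-voom and without a filter, and Pgm2 at -0.03 by total count and -0.01 by limma-voom and with 5 libraries. By the longest transcript in place of joined exons, the difference in isoenzyme share, co-culture minus alone, was 61.9 points for Slc16a3 (58.2 by joined exons), 43.7 for Pdk1 (42.2), 15.6 for Hk2 (16.8) and -4.25 for Ldhb (-6.28). With a library left out it ranged from 44.2 to 72.2 for Slc16a3 and from 13.1 to 20.6 for Hk2. The third library's median was -0.22 by RLE and upper quartile and -0.17 by total count. The authors' normalized columns were not used for shares, so shares from them were not run.

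No paired analysis was possible because the columns of the shared table carry no replicate number, so the planned replicate block was not run. With 2 libraries per group a share cannot pass any exact test, so shares are values only.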
